A study of Mus musculus with 3 samples.

Results

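The G1 cyclins, the kinases they bind and the brakes on those kinases were examined in RNA-seq of E14 mouse ESCs as a set of 10 genes, chosen by symbol: *Ccnd1*, *Ccnd2*, *Ccnd3*, *Ccne1*, *Ccne2*, *Cdk2*, *Cdk4*, *Cdk6*, *Cdkn1b* and *Rb1*. All 10 were found among the 23953 genes of the deposited tables. The study asked which genes depend on the *Oct4* distal enhancer (DE), and sequenced 3 libraries, 1 for each condition. WT stands for wild-type E14 cells kept in medium with LIF. Tam stands for cells with loxP sites on both alleles of the DE, *Oct4* DE (−/−), given 4-hydroxytamoxifen for 48 h, which activates the CreERT2 recombinase. DoxTam stands for such cells given 4-hydroxytamoxifen and doxycycline for 48 h, where doxycycline switches on a transgenic mouse *Oct4* behind a TRE promoter. The submitters list the doxycycline-inducible and the tamoxifen-inducible construct for all 3 samples, WT included, and the sources used here do not say whether the WT cells carried loxP sites. The edited lines were expanded from picked clones. A treatment time is recorded for the treated libraries and none for WT. In the folds against WT, loss of the DE therefore cannot be told apart from drug exposure, recombinase activity or clone. Since each condition has 1 library, no difference has a replicate check, no test was possible, and every fold below describes a pair of libraries.

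In a dividing cell, D-type cyclins bind CDK4 and CDK6 in G1, the phase before DNA is copied, and these kinases start to phosphorylate the retinoblastoma protein RB1. E-type cyclins with CDK2 complete that step, which frees E2F factors to switch on the genes of DNA synthesis. CDKN1B (p27) restrains the cyclin E and CDK2 complex. Mouse ESCs are known for a short G1 phase, for cyclin E and CDK2 activity that varies little over the cycle, and for RB1 that is kept phosphorylated.

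Before any G1 gene, *Pou5f1*, which encodes OCT4, was set against the labels. It stood at 664 FPKM in WT, at 529 FPKM in the Tam-labelled library and 458 FPKM in the DoxTam-labelled library (FPKM, the number of fragments scaled by transcript length and library size). The Tam-labelled library was below WT by a log2 fold of -0.33, inside 1.5-fold, and the library that should carry transgenic *Oct4* held the lowest value. These levels do not check the deletion of the DE itself, and an exchange of the treated labels cannot be told apart from other reasons for this order. The treated libraries are therefore named by their labels throughout. From the lowest levels of olfactory receptor genes, the treated libraries had about 0.495 (Tam) and 0.558 (DoxTam) of the depth of WT. Of 1095 olfactory receptor genes, which ESCs do not use, 33.7% were above 0 in WT, 70.7% in the Tam-labelled library and 16.7% in the DoxTam-labelled library. All 12 naive ESC markers were measured in each library, with summed levels of 2971, 2642 and 2457 FPKM in WT, Tam and DoxTam. Of these markers *Utf1* was lower by 1.5-fold in both treated libraries (181 FPKM in WT, 90.6 in Tam, 83.2 in DoxTam), *Tfcp2l1* was higher for Tam (90.7, 139 and 118 FPKM), and the others were inside 1.5-fold. Markers of other cells were low: 8 trophectoderm markers summed to between 27.2 and 33.7 FPKM, 7 primitive endoderm markers to between 3.72 and 3.93 FPKM, 7 fibroblast markers to between 8.11 and 10.6 FPKM, and 6 primed epiblast and mesoderm markers to between 28.5 and 30.7 FPKM. Of the trophectoderm markers, *Cdx2* (0.64 FPKM in WT, 2.82 in Tam, 0.13 in DoxTam) and *Gata3* (0.10, 1.77 and 0.21 FPKM) were higher for Tam, *Eomes* (2.91, 4.08 and 5.43 FPKM) was higher for DoxTam and *Tfap2c* (6.55, 4.46 and 3.70 FPKM) lower for DoxTam, so the list had no common direction. Of the other lists, the mesoderm marker *T* (0.31, 1.92 and 0.51 FPKM) was higher for Tam and the fibroblast marker *Thy1* (4.52, 2.27 and 2.63 FPKM) lower in both treated libraries. The part of other cells in the folds below was not tested. What the larger share of olfactory receptor genes above 0 in Tam means for low levels there, such as *Ccnd2*, was not tested either.

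The 10 genes covered a wide range of levels, and their order was the same in all 3 libraries. *Cdk4* was the most abundant, followed by *Ccnd3*, *Ccne1*, *Cdk2*, *Cdkn1b*, *Ccnd1*, *Rb1*, *Cdk6*, *Ccne2* and *Ccnd2*. In WT the *Cdk4* level was above that of 98.9% of all genes listed and the *Ccnd3* level above that of 98.5%, whereas the *Ccnd2* level was above that of 48.5%. Without replicates it cannot be said which neighbours in this order differ beyond their spread. In the plot of levels by gene, *Ccnd3*, *Ccne1*, *Ccne2* and *Ccnd2* have points that separate between WT and a treated library by more than 1.5-fold on the plain FPKM scale, *Ccnd2* at levels below 1 FPKM.

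**Figure D1:**
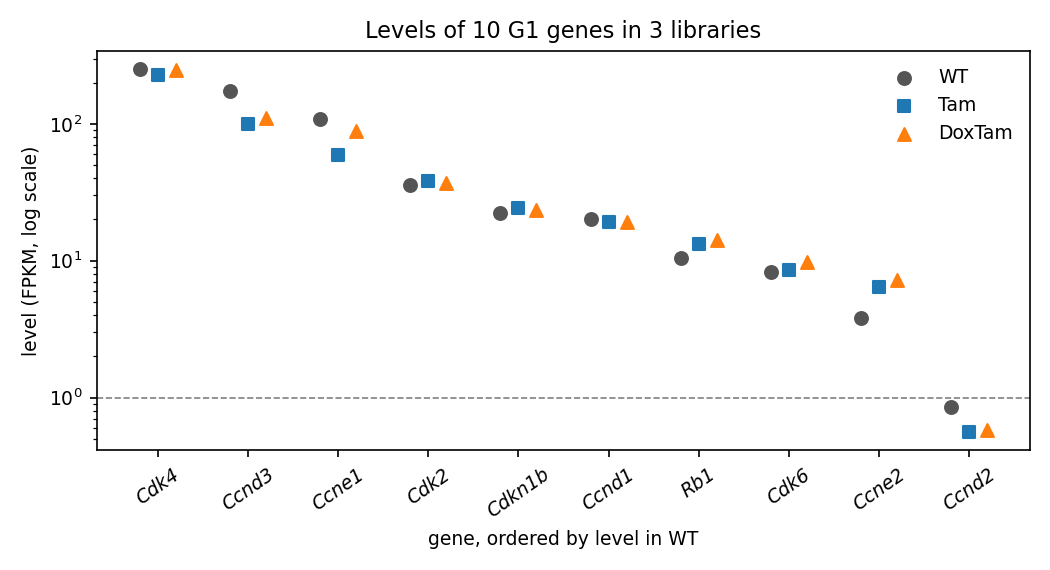
Level of each of the 10 genes (y axis, FPKM, log scale) in the libraries WT (grey circles), Tam (blue squares) and DoxTam (orange triangles), ordered by the level in WT, with 1 point per library and a dashed line at 1 FPKM. *Ccnd3* goes from 173 FPKM in WT to 100.1 and 109 FPKM, *Ccne1* from 108 to 59.5 and 89.1 FPKM, and *Ccne2* from 3.84 to 6.47 and 7.19 FPKM.

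Folds were taken as the log2 ratio of FPKM + 1, which understates the change of low genes, and a gene was called higher or lower at 1.5-fold (0.58 on the log2 scale) if either library of the pair held 1 FPKM or more of it. Of the 10 genes 9 reached that level. In the Tam-labelled library 2 of them were lower than WT (*Ccnd3* and *Ccne1*), 1 was higher (*Ccne2*) and 6 were inside 1.5-fold. Over all 12705 genes measured in that comparison, 10.6% were called in either direction (6.98% higher, 3.59% lower). In the DoxTam-labelled library 1 was lower (*Ccnd3*), 1 was higher (*Ccne2*) and 7 were inside 1.5-fold, against 9.9% of 12384 genes called in either direction (4.12% higher, 5.78% lower). The median log2 fold over the 9 measured genes was 0.0358 for Tam and 0.0368 for DoxTam (-0.02 and 0.0017 with *Ccnd2* included), beside medians over all measured genes of 0.02 and -0.0028. The calls lay in 3 cyclin genes, with the kinases, the inhibitor and *Rb1* inside 1.5-fold. Both comparisons share the WT library, so a chance value of that library enters both.

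**Figure D2:**
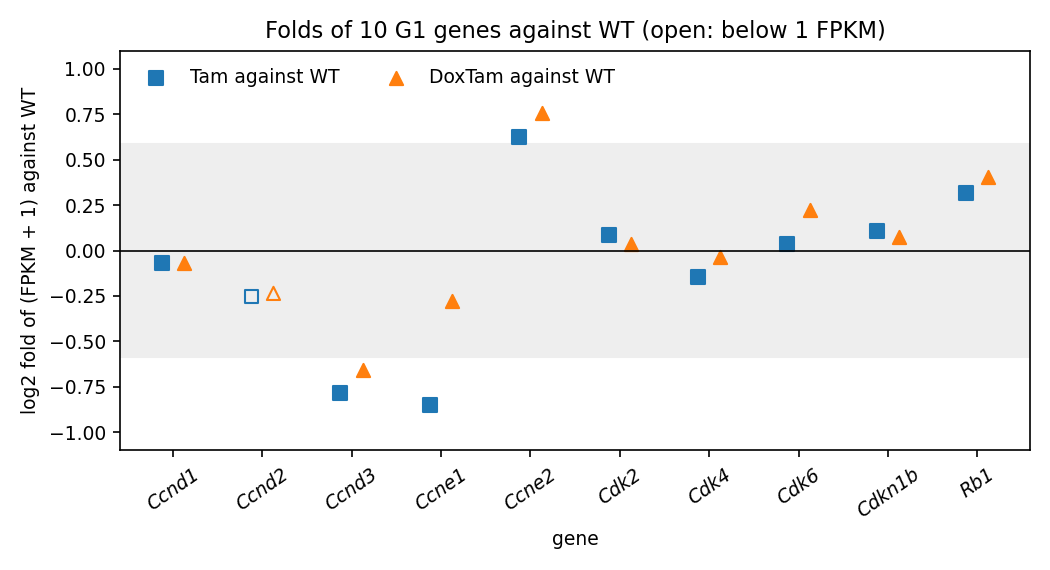
Log2 fold of FPKM + 1 against WT (y axis) for each of the 10 genes, for the Tam-labelled library (blue squares) and the DoxTam-labelled library (orange triangles), with 1 point per pair of libraries and the grey band marking folds inside 1.5-fold. *Ccnd3* lies below the band in both comparisons (-0.78 and -0.66), *Ccne2* above it in both (0.63 and 0.76) and *Ccne1* below it for Tam alone (-0.85 against -0.28), and the open symbols mark *Ccnd2*, which is below 1 FPKM in each library.

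Among the D-type cyclins *Ccnd3* was the leading transcript. The gene lies on chromosome 17, the chromosome of *Pou5f1* (mm9, GENCODE annotation, 47642000 to 47736632, plus strand), 12.0 Mb beyond the end of *Pou5f1*. Its level came to 173 FPKM in WT, 100.1 FPKM in the Tam-labelled library and 109 FPKM in the DoxTam-labelled library. Both treated libraries were below WT, by 42.1% and 36.7%, and they differed from each other by a log2 fold of 0.13 (DoxTam against Tam). The log2 folds against WT were -0.78 and -0.66. Of all genes measured 1.52% had a lower fold than *Ccnd3* for Tam and 4.07% for DoxTam. These shares were taken without removing the trend of folds with GC content described below. The minus-strand gene *Bysl* overlaps 353 bases of *Ccnd3* exons and was at 19.5, 14.8 and 17.2 FPKM in WT, Tam and DoxTam.

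*Ccnd1*, the D-type cyclin best known as a target of growth factor signaling, was at 20.2 FPKM in WT, at 19.3 FPKM in the Tam-labelled library and 19.2 FPKM in the DoxTam-labelled library. These levels lie close together, with log2 folds of -0.07 in each comparison against WT and -0.0034 between the treated libraries. The plus-strand gene *Oraov1* overlaps 818 bases of *Ccnd1* exons and was at 6.47, 5.65 and 4.32 FPKM in WT, Tam and DoxTam. *Ccnd2* was at 0.857 FPKM in WT, at 0.558 FPKM in Tam and 0.577 FPKM in DoxTam, below the limit of 1 FPKM in each library, and it was not called. A rough conversion by transcript length and depth puts *Ccnd2* at some 57 fragments in WT and at 18 and 21 in the treated libraries, so its values are imprecise.

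As a share of the summed level of the 3 D-type cyclins, which does not depend on the scale of a library, *Ccnd3* made up 89.1% in WT, 83.5% in the Tam-labelled library and 84.7% in the DoxTam-labelled library. *Ccnd1* made up 10.4%, 16.1% and 14.9%. The sum was 194 FPKM in WT, 119.9 FPKM in Tam and 129 FPKM in DoxTam. The smaller sums thus came with a smaller share of *Ccnd3*, at a near constant *Ccnd1*. The ratio of *Ccnd3* to *Cdk4*, the kinase its protein binds, was 0.687 in WT and 0.440 and 0.445 in Tam and DoxTam. The transcript of *Ccnd3* has 58.4% GC and that of *Ccnd1* 50.9%. A trend of folds with GC content, described below, was not removed from these shares and this ratio.

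**Figure D3:**
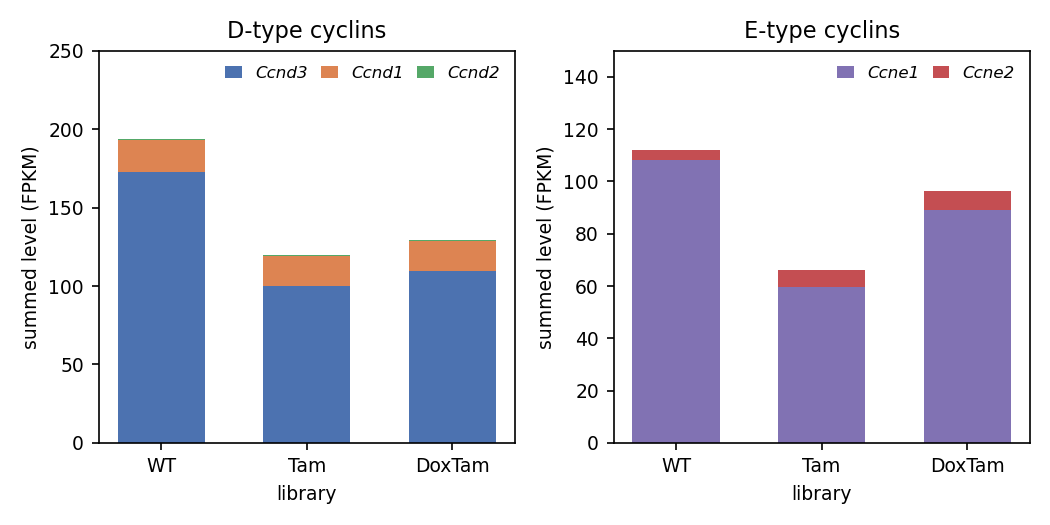
Summed level (y axis, FPKM) of the D-type cyclins (left) and of the E-type cyclins (right) in each library (x axis), as stacked bars that start at 0, with 1 library per bar and no error. The D-type sum is 194, 119.9 and 129 FPKM and the E-type sum 112, 66.0 and 96.3 FPKM in WT, Tam and DoxTam, with *Ccnd3* and *Ccne1* forming most of each bar.

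The E-type cyclins differed from WT in opposite directions. *Ccne1* (chromosome 7, 38883003 to 38892553, minus strand, mm9) was at 108 FPKM in WT, at 59.5 FPKM in the Tam-labelled library and 89.1 FPKM in the DoxTam-labelled library. The lowest value was that of Tam, and DoxTam lay between Tam and WT. The log2 fold was -0.85 for Tam, the largest among the measured genes of the set, and -0.28 for DoxTam. Of all genes measured 1.13% had a lower fold than *Ccne1* for Tam and 22.2% for DoxTam.

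Set against each other, the treated libraries differed in *Ccne1* by a log2 fold of 0.57 (DoxTam against Tam), just inside the limit of 0.58, and 97.8% of the 12628 genes measured in that comparison had a lower fold. The levels come from 2 tables, whose WT columns differ by over 1% in 2 genes. None of the 9 measured genes of the set was called between the treated libraries, against 7.82% of all genes measured (2.09% higher, 5.73% lower). The next largest fold among them was that of *Cdk6*, at 0.19. The call of *Ccne1* in this comparison turned on the setting: the log2 fold was 0.63 after the trend with GC content was removed, 0.79 after rescaling to the same total and 0.59 both after centring on the median and after rescaling without small RNA genes, all past 1.5-fold.

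*Ccne2* (chromosome 4, 11118498 to 11131926, plus strand, mm9) was at 3.84 FPKM in WT, at 6.47 FPKM in the Tam-labelled library and 7.19 FPKM in the DoxTam-labelled library. Both treated libraries were above WT, with log2 folds of 0.63 and 0.76, and these levels correspond to some 130, 110 and 140 fragments by the rough conversion. The minus-strand gene *Ints8*, at 15.6, 17.2 and 18.9 FPKM in WT, Tam and DoxTam, overlaps 609 bases of *Ccne2* exons. The library kit marks strand, and the sources used here do not say whether strand was used in counting, so reads from the shared bases may count toward either gene.

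The ratio of *Ccne1* to *Ccne2* was 28.1 in WT, 9.20 in the Tam-labelled library and 12.4 in the DoxTam-labelled library. Each treated library had a ratio below that of WT. *Ccne1* made up 96.6% of the summed E-type level in WT, 90.2% in Tam and 92.5% in DoxTam, so it stayed the main E-type transcript. The sums were 112, 66.0 and 96.3 FPKM. Relative to *Cdk2*, the kinase of the E-type cyclins, *Ccne1* stood at 3.02 in WT, 1.57 in Tam and 2.43 in DoxTam. The transcripts of *Ccne1* and *Ccne2* differ in GC content (52.7% and 36.3%). The trend of folds with GC content, described below, was not removed from these ratios and shares.

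The 3 kinases were inside 1.5-fold in both comparisons with WT. *Cdk4*, a partner of the D-type cyclins, was at 252 FPKM in WT, at 227 FPKM in the Tam-labelled library and 246 FPKM in the DoxTam-labelled library (log2 folds of -0.15 and -0.03). *Cdk6*, the other partner of the D-type cyclins, was at 8.27, 8.50 and 9.81 FPKM (0.04 and 0.22). In level per length *Cdk4* thus stood at 30.5 times *Cdk6* in WT, 26.8 times in Tam and 25.1 times in DoxTam. *Cdk2* was at 35.7 FPKM in WT, at 38.04 FPKM in Tam and 36.7 FPKM in DoxTam (0.09 and 0.04).

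*Cdkn1b*, the p27 inhibitor, was at 22.4 FPKM in WT, at 24.2 FPKM in the Tam-labelled library and 23.6 FPKM in the DoxTam-labelled library, with log2 folds of 0.11 and 0.07. Its ratio to *Cdk2* was 0.626, 0.635 and 0.643. The values of all 3 libraries lie within a narrow range. *Rb1*, the pocket protein that the G1 kinases phosphorylate, was at 10.4 FPKM in WT, at 13.2 FPKM in Tam and 14.1 FPKM in DoxTam. Both treated libraries were above WT, by log2 folds of 0.32 and 0.40, which did not reach 1.5-fold. *Rb1* shares exon bases with the plus-strand genes *Rcbtb2* (488 bases) and *Lpar6* (408 bases), and *Lpar6* was at 3.93, 5.99 and 7.77 FPKM in WT, Tam and DoxTam.

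Folds followed the GC content of the transcripts across all genes, with a Spearman correlation of -0.389 over 11292 genes for Tam and -0.611 over 11028 genes for DoxTam, given as a description since genes are not independent replicates. Of the genes called, *Ccne2* and *Ccnd3* lie toward the ends of that scale and *Ccne1* nearer its middle. *Ccne2* has a transcript of 36.3% GC, with 0.469% of the genes in the Tam comparison below it, and *Ccnd3* one of 58.4% GC, with 89.5% below it. *Ccne1*, at 52.7% GC, had 59.9% below it, and *Rb1*, at 41.2% GC, had 7.33%. The trend with GC content at these values was 0.34 (Tam) and 0.42 (DoxTam) for *Ccne2*, -0.16 and -0.29 for *Ccnd3*, and -0.04 and -0.09 for *Ccne1*.

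With the trend removed, *Ccne1* (-0.81) and *Ccnd3* (-0.63) were still lower by 1.5-fold in the Tam-labelled library, and *Ccne2* (0.29) was not called. In the DoxTam-labelled library, *Ccnd3* (-0.36) and *Ccne2* (0.34) were both inside 1.5-fold, and 0 of the 9 measured genes were called. *Rb1* was at 0.12 and 0.09. With the trend removed, 1.76% of the measured genes with a GC value had a lower fold than *Ccnd3* for Tam and 8.36% for DoxTam. The part that GC content plays in the folds was not tested further.

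**Figure D4:**
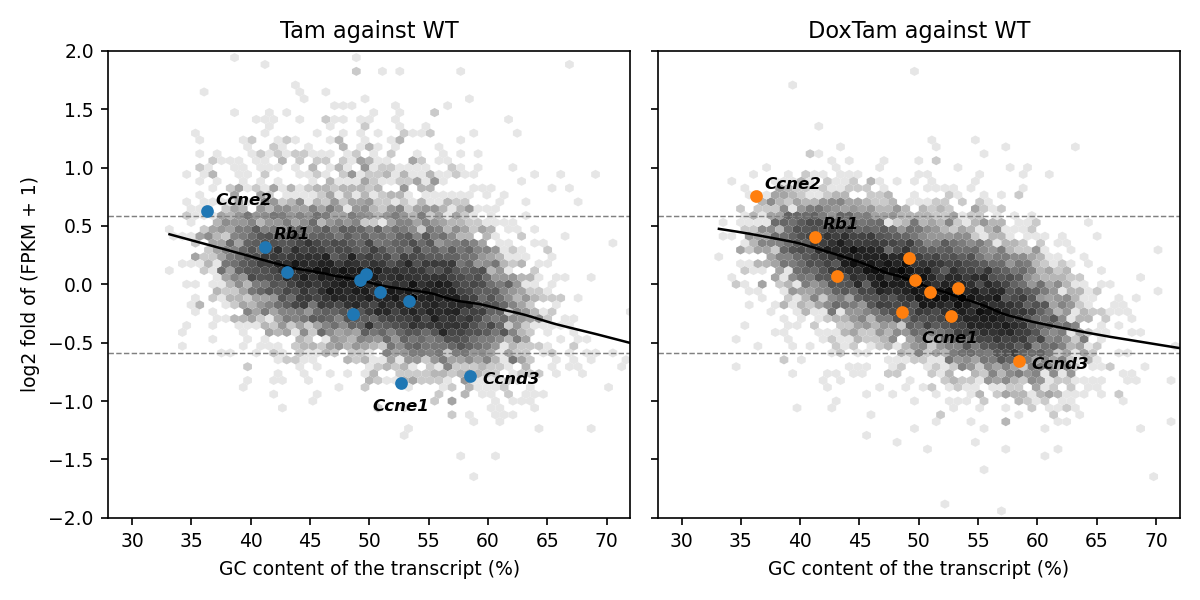
Log2 fold of FPKM + 1 against WT (y axis) by GC content of the transcript (x axis, percent), for the Tam-labelled library (left) and the DoxTam-labelled library (right). Grey hexagons are all measured genes with a GC value within the axis limits, darker where there are more, the black line is the lowess trend, dashed lines mark 1.5-fold and coloured points are the 10 genes. *Ccne1* lies well below the line for Tam (-0.81 from the line), whereas *Ccne2* and *Rb1* at low GC content lie near or moderately above it and *Ccnd3* at 58.4% GC lies below it.

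With all libraries set to an equal total, the median fold of all measured genes was 0.15 for Tam, in place of 0.02, and 0.32 for DoxTam, in place of -0.0028. On that scale *Ccne1* and *Ccnd3* remained low for Tam, at -0.70 and -0.64, and were called. For DoxTam *Ccnd3* was at -0.30, inside 1.5-fold, *Ccne1* turned to 0.08, and *Rb1*, at 0.74, was called higher along with *Ccne2*. With small RNA genes left out of that total, the medians were 0.01 and 0.0003, and 2 lower and 1 higher gene of the set for Tam and 1 and 1 for DoxTam were called, as without rescaling.

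The promoters of *Ccnd3* and *Ccne1*, the cyclin genes with lower levels in a treated library, and of *Cdk4*, the most abundant and little altered gene, are shown as the 250 bases before the start, 5′ to 3′ on the strand of the gene. They come from RefSeq (build GRCm38.p6), which matched 6 of the 10 genes with 7 starts. The genes without an entry were *Ccnd1*, *Ccnd2*, *Ccne2* and *Rb1*. Capitals mark GGGCGG, the core of the GC box bound by Sp factors, and CACGTG, the E-box bound by MYC and related factors, on either strand, and the motifs do not overlap here. *Ccnd3* has 2 starts, at chr17:47504801-47505050 and chr17:47593217-47593466 (plus strand). *Ccne1* lies at chr7:38107491-38107740 (minus strand) and *Cdk4* at chr10:127063285-127063534 (plus strand).
Ccnd3, first start: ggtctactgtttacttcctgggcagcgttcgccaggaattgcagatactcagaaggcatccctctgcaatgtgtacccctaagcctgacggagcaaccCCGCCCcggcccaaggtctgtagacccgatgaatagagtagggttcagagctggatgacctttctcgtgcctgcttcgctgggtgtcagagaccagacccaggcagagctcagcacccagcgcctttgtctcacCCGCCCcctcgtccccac
Ccnd3, second start: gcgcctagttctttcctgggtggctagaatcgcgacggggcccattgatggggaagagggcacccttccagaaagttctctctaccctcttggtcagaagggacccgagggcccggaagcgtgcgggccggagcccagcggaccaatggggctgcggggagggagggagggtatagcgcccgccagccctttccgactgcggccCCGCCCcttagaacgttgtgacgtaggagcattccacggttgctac
Ccne1: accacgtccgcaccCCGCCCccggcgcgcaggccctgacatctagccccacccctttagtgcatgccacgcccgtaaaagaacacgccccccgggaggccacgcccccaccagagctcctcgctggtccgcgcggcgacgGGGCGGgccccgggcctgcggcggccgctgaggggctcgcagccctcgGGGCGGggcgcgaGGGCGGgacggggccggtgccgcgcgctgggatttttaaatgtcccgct
Cdk4: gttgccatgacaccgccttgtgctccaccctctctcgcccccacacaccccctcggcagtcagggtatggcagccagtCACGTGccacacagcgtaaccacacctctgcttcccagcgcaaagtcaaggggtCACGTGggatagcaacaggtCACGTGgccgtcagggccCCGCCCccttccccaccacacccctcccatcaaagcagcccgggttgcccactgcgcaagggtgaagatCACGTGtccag

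*Cdk4* holds 4 E-boxes, beginning 172, 118, 98 and 11 bases before its start, and *Ccne1* and *Ccnd3* hold 0. Of the matched genes not printed, all inside 1.5-fold, *Cdk2* and *Cdkn1b* also hold 0 and *Cdk6* holds 1. The E-box count thus does not separate the lower genes from the others. Of 32851 RefSeq promoter windows of this length 6.02% hold at least 1 E-box. GC boxes number 4 in *Ccne1*, 2 and 1 at the starts of *Ccnd3* and 1 in *Cdk4*, and 32.7% of all windows hold at least 1. *Cdk2* has 5 GC boxes, *Cdkn1b* 1 and *Cdk6* 0. The 250 printed bases have a GC content of 76.0% in *Ccne1*, 59.6% and 64.8% in *Ccnd3* and 64.4% in *Cdk4*. The E2F letters TTTCCCGC, TTTGGCGC, TTTCGCGC and TTTGCCGC had 0 matches in the 4 printed windows on either strand. Each is held by under 1% of all windows (0.895%, 0.417%, 0.256% and 0.338%), and TTTCCCGC had 1 match in *Cdk2*. The octamer ATGCAAAT, the letters that POU factors such as OCT4 bind, is in 1.6% of windows and in 0 of the 7 windows of the set. A match is only a description of letters, and no match says only that these letters are not in this window.

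The other genes of the G1 pathway were counted by list, to be read against the 10.6% (Tam) and 9.9% (DoxTam) of all measured genes that were called in either direction. Of the other CDK inhibitors, 6 of 7 were measured for Tam and 5 of 7 for DoxTam, and 0 were called against WT, although 1 was higher for Tam once the GC trend was removed or the totals were made equal. *Cdkn1a* (p21) was at 18.5 FPKM in WT, at 20.0 FPKM in the Tam-labelled library and 14.7 FPKM in the DoxTam-labelled library. *Cdkn2a*, which encodes p16 and p19ARF, was at 12.4, 13.97 and 8.14 FPKM, and it was lower in DoxTam than in Tam (log2 fold of -0.71), the only gene of this list called in that comparison. Of 8 other pocket proteins and partners, 1 was higher for Tam, *Lin54* (0.60), and 1 for DoxTam, *Lin9* (0.59). Both belong to the DREAM complex, which holds cell cycle genes off outside of division, and 0 of the list were called after the GC trend was removed.

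All 10 E2F and DP factors were measured and 0 were called in either comparison with WT, with log2 folds between -0.40 and 0.20 for Tam and between -0.46 and 0.27 for DoxTam. Of 7 CDK activators 0 were called for Tam and 1 was lower for DoxTam, *Cdc37* (-0.59), a chaperone partner that loads kinases such as CDK4 onto HSP90. Of 13 measured genes of cyclin and p27 turnover, 0 were called for Tam and 1 was lower for DoxTam, *Fbxo31* (-0.63), an F-box protein that targets cyclin D1. Neither *Cdc37* nor *Fbxo31* was called with the GC trend removed. *Fbxw7*, the F-box protein that targets cyclin E, was at 11.0, 11.5 and 12.5 FPKM in WT, Tam and DoxTam. *Skp2*, the F-box protein that targets p27, was at 17.2, 15.3 and 18.7 FPKM.

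A chosen list of 22 E2F target genes around DNA synthesis, not the full set of E2F targets, was measured in full. Of these 0 were called for Tam and 1 was higher for DoxTam, *Pcna*, the sliding clamp of the replication fork, with 87.8 FPKM in WT, 109 FPKM in Tam and 137 FPKM in DoxTam (log2 folds of 0.31 and 0.63). With the GC trend removed 0 of the list were called, and with equal totals 4 were higher for DoxTam. The list had a median log2 fold of -0.09 for Tam and 0.03 for DoxTam, and 0.05 and 0.38 after rescaling to the same total. *Ccna2*, the cyclin that follows cyclin E in S phase, was at 80.5, 79.8 and 85.8 FPKM. Of 10 G2 and mitotic cyclins and kinases 0 were called in either comparison with WT, with log2 folds between -0.32 and 0.25 for Tam and between -0.43 and 0.49 for DoxTam.

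**Figure D5:**
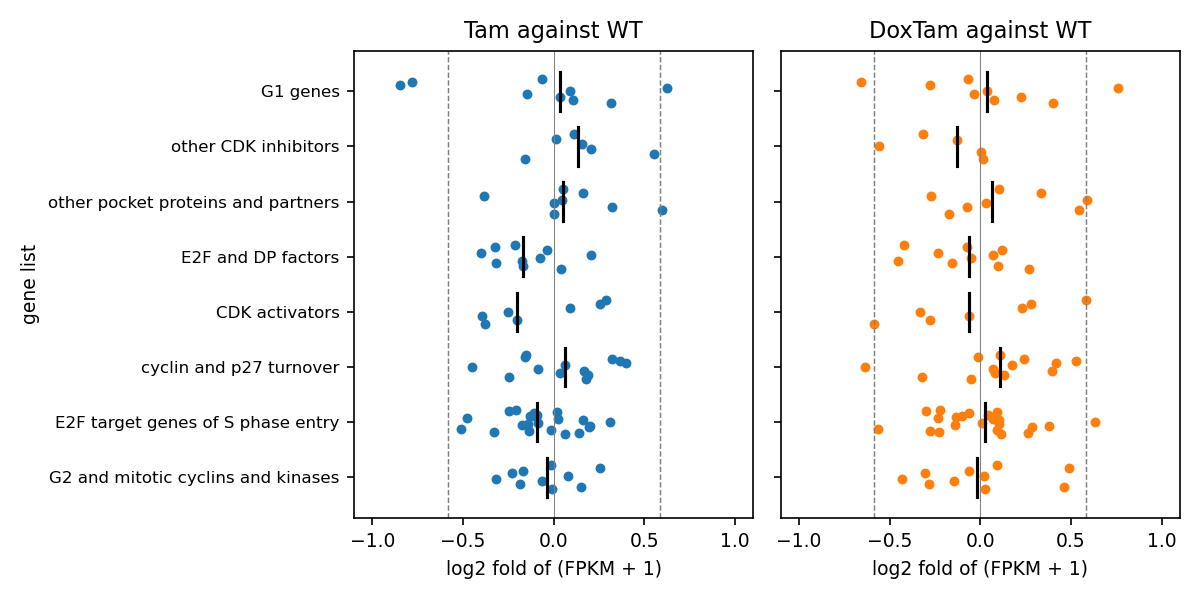
Log2 fold of FPKM + 1 against WT (x axis) of each measured gene in the set of G1 genes and in 7 lists of the wider pathway (y axis), for the Tam-labelled library (left) and the DoxTam-labelled library (right). Each point is 1 gene in 1 pair of libraries, black bars are medians and dashed lines mark 1.5-fold. *Ccne1* (-0.85) and *Ccnd3* (-0.78) are the only genes of these lists below the lower line for Tam, and the 10 E2F and DP factors lie inside both lines in each panel.

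The pattern of *Ccne1*, low for Tam and nearer to WT for DoxTam, was compared with that of all genes at 5 FPKM or more in WT, leaving out unnamed gene models and small RNA genes. Likeness was the Euclidean distance over the 2 log2 folds against WT, which rest on 3 libraries. The nearest genes were *Wdr31* (distance 0.00916), *Ppp2r5a* (0.0214) and *Lenep* (0.0355). *Ppp2r5a*, a regulatory subunit of the phosphatase PP2A, was at 52.3 FPKM in WT, at 29.0 FPKM in the Tam-labelled library and 43.3 FPKM in the DoxTam-labelled library. *Wdr31* and *Lenep* had low levels, 6.86 and 5.07 FPKM in WT.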

How the data were processed

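The 3 RNA-seq libraries, 1 per condition, were grouped by the titles of the samples. The authors deposited 2 tables of gene levels in FPKM, each pairing WT with a treated library. Per the submitters' processing notes the tools were TopHat, Bowtie and Cufflinks 2.0.0, with the build mm9. The annotation used for counting was not given in the sources used here. The deposited fold changes, test statistics, p-values, q-values and significance marks are the authors' own comparisons and were not used. FPKM values were taken as deposited. WT levels differed by over 1% between the tables for 2 genes, and 27 gene names were not shared, so that DoxTam against Tam used 23926 genes.

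Folds were log2((FPKM + 1)/(FPKM + 1)), for genes that reached 1 FPKM in either library, and a call at 1.5-fold. Calculations used Python 3.11.15 with pandas 2.3.3, and the trend with GC content (longest protein-coding transcript, GENCODE vM1, mm9) was fitted by lowess in statsmodels 0.14.6 with a span of 0.2. Positions and overlaps came from the same annotation. The folds, the calls and the removal of the GC trend were tried on simulated data for the comparisons against WT. The depth estimate, fragment conversion, rescaling and promoter search were not. Fragment counts were not used here. The FPKM of 1 fragment in olfactory receptor genes (transcript length 957 bases at the median) was about 0.0901 in WT, 0.182 in Tam and 0.161 in DoxTam. Fragment numbers were derived from these values by transcript length and are rough.

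Named genes were the 10 members, *Pou5f1*, the genes of each pathway list that reached 1.5-fold against WT (at most the 2 highest and 2 lowest) and the 3 genes nearest in pattern to the member with the largest fold. *Cdkn1a*, *Cdkn2a*, *Fbxw7*, *Skp2*, *Ccna2*, the cell type markers other than *Pou5f1* and the overlapping genes were chosen after their values were seen. The members and lists were chosen with earlier results of these data known.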

Additional observations from a re-analysis of the deposited data

How the results depend on the processing

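Every value rests on 1 library per condition, so no replicate could be left out. No paired analysis was possible because each group has 1 sample and the result comes from no test. The number of the 10 genes called was 3 for Tam, 2 for DoxTam and 0 between the treated libraries. It was 0 for Tam and 0 for DoxTam at 2-fold. For DoxTam it was 1 with a pseudocount of 5 FPKM and 0 with the GC trend removed, and between the treated libraries it was 1 after centring, after either rescaling and with the GC trend removed. The median fold of the 10 genes moved to 0.12 (Tam), 0.36 (DoxTam) and 0.31 (DoxTam against Tam) after rescaling to the same total. *Ccne2* was inside 1.5-fold with a pseudocount of 5 FPKM, at 0.38 for Tam and 0.46 for DoxTam. Of 270 folds of single genes under an alternative, 254 stayed as they were, either called or not called. A call was lost in 11 and gained in 5, and 0 of those called changed sign. Only the 3 calls for Tam and 2 for DoxTam could be lost, so most of the 254 were folds without a call. Genes called over the whole table numbered 1343 for Tam, 1226 for DoxTam and 988 for DoxTam against Tam. In the same order they were 2043, 2002 and 1614 with a pseudocount of 0.1 FPKM, 464, 438 and 269 with 5 FPKM, and 363, 217 and 308 at 2-fold. They were 812 for Tam and 462 for DoxTam against Tam with a filter at 5 FPKM, 1524 for DoxTam against Tam with no filter, 855 for Tam and 468 for DoxTam with the GC trend removed (in the genes with a GC value), and 3006 for DoxTam after rescaling to the same total. The split of higher against lower genes was 887 and 456 for Tam and 510 and 716 for DoxTam, and it was 1412 and 272 and 2784 and 222 after that rescaling. For DoxTam against Tam it was 264 and 724, and 781 and 558. Causes were not tested. Genes below 1 FPKM, such as *Ccnd2*, rest on few fragments.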
